A study of Rattus norvegicus with 24 samples.

Results

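Reactive astrocyte genes are transcripts whose abundance in astrocytes climbs after injury, inflammation or excitotoxic stress in the brain. The set here holds 8 genes (Gfap, Vim, Hspb1, Lcn2, Serpina3n, Cd44, Timp1 and Tnc) of the 14217 genes named on the array, taken as every probe set whose single platform gene symbol is one of them. They were represented by 9 probe sets of 31042, because Cd44 had 2. The set was described in rat brain over 6 dose groups of D-serine.

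The arrays came from male Fisher 344 rats aged 11 to 12 weeks, each given 1 dose and killed 96 h later, and a piece of forebrain of about 30 mg was taken for total RNA. The groups were vehicle (0 mg/kg), 5, 20, 50, 200 and 500 mg/kg D-serine, with 4 rats a group, 1 Affymetrix rat array a rat and 24 arrays in all. All groups shared strain, sex, age and tissue, no allele or second agent was named, and neither the route nor the vehicle's composition is given in the sources used here. The labels name each rat separately, so the replicates were animals. The animal numbers ran in a separate block for each group, in the order vehicle, 500, 200, 50, 20 and 5 mg/kg. Dose and animal order therefore cannot be told apart in any comparison, and the part of that order was not tested.

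Astrocytes are the glial cells that clear glutamate, buffer potassium and contact vessels and synapses. When they become reactive they build up the intermediate filaments glial fibrillary acidic protein (Gfap) and vimentin (Vim), remodel the matrix through tenascin C (Tnc), the hyaluronan receptor Cd44 and the metalloproteinase inhibitor Timp1, and secrete the protease inhibitor Serpina3n and the lipocalin Lcn2, while the small heat shock protein Hspb1 protects the filament network. D-serine is a co-agonist of the NMDA type of glutamate receptor and is released in the brain. The set holds genes used as markers of a glial injury response. Other cells also make some of them, and several were too dim to test here. Their levels therefore do not settle whether such a response was present after a dose.

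Values are log2(intensity + 16) after quantile normalization, and differences are log2 differences of a dose group minus its comparison group, so that −1 is a level of one part in 2. The label forebrain was checked against marker genes. Nrgn, a forebrain neuron transcript, lay between 10.82 and 11.77 on 23 arrays and at 6.41 on 1, the 500 mg/kg array of Animal #251 (replicate 4). Gabra6, a receptor subunit of cerebellar granule cells, was at 10.73 on that array and between 4.40 and 5.98 on the other 23. Its median correlation with the other arrays was 0.916, where the other arrays had 0.964 to 0.974. Member results at 500 mg/kg and calls of members are therefore given with and without it (24 and 23 arrays), since leaving it out also alters the spread that all comparisons share.

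Other measures differed between arrays and recur beside the results. For the Gapdh control, the 3′ probe set minus the 5′ one on the log2 scale, a reading of RNA integrity and labelling, averaged 0.83 ± 0.06 in vehicle, 0.19 ± 0.07 at 5, 0.18 ± 0.04 at 20, 0.34 ± 0.17 at 50, 0.60 ± 0.21 at 200 and 0.75 ± 0.14 at 500 mg/kg (SD, n = 4 each, as deposited). It was below every vehicle array at 5, 20 and 50 mg/kg (exact two-sided permutation p = 0.0286, the smallest that 4 against 4 allows, and 0.0476 adjusted over 5 doses). Markers of choroid plexus, the secretory epithelium of the ventricles, summed to between 8345 and 12825 intensity units on 5 arrays (vehicle replicate 2, 50 mg/kg replicate 3, 200 mg/kg replicates 1 and 4, and 500 mg/kg replicate 4) and to between 709 and 1586 on the other 19.

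4 members passed the filter on low values, which dropped the dimmest 40% by mean level (a cut at 5.98), and these were tested. Their promoters are shown because Hspb1, Vim, Tnc and Gfap carry every call below, and each was searched for motifs of factors known from reactive gliosis and stress. Each stretch runs from 250 bases before to 50 bases after the annotated start, 5′ to 3′ on the gene's strand, from RefSeq on build GRCr8, and matched motifs are in capitals.
Hspb1, chr12:26432252-26432551, minus strand: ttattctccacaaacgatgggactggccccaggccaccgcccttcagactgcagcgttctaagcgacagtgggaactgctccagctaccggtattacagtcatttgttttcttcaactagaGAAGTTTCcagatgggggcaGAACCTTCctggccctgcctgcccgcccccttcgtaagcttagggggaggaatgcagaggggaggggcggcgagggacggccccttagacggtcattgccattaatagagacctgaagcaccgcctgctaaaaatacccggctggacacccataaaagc
Vim, chr17:81577011-81577310, plus strand: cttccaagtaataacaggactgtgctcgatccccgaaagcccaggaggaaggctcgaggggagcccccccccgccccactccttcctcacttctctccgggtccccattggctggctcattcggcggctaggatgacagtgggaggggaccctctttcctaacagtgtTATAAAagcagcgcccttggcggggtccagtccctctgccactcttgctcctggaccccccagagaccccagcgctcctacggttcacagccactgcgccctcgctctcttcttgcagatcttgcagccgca
Tnc, chr5:82476082-82476381, minus strand: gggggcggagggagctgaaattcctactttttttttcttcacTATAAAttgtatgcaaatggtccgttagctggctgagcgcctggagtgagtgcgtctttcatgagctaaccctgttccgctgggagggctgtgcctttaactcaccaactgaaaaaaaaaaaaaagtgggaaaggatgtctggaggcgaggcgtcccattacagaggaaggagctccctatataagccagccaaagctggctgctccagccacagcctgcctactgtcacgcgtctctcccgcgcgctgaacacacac
Gfap, chr10:88361612-88361911, minus strand: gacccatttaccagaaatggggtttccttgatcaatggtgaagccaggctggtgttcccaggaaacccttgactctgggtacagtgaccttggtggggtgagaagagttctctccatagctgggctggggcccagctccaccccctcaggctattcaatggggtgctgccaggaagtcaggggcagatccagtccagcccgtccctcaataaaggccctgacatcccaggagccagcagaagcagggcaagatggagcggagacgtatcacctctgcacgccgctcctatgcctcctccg
The letters searched on both strands were the STAT motif TTCNNNGAA, the heat shock element TTCNNGAA or GAANNTTC, the AP-1 motif TGANTCA, and TATAAA. All 8 members had a promoter in the table of 33469. Hspb1 held 2 matches to the heat shock element, GAAGTTTC and GAACCTTC, starting 129 and 109 bases before the start, and 15.9% of all promoters held at least 1. TATAAA, in 14.2% of all promoters, was found 82 bases before the start of Vim and 208 before that of Tnc. The STAT motif, in 8.87% of all promoters, was found in none of the 4 and, among the members below the cut, in Serpina3n alone (TTCCCAGAA, 123 bases before the start), which also held 1 heat shock match (GAATTTTC). The AP-1 motif, in 7.33% of all promoters, was found in none of the 8. No motif searched was found in the Gfap window, so none of its letters are in capitals. Sequence outside these windows was not searched, so a motif farther upstream would be missed.

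None of the 4 tested members was called higher than vehicle at any dose. All 4 had a mean below vehicle at all 5 doses, the smallest difference being −0.02 (Gfap at 50 mg/kg). The median of the 4 differences was −0.54 at 5, −0.55 at 20, −0.41 at 50, −0.50 at 200 and −0.36 at 500 mg/kg (−0.51 without Animal #251). For all 9 member probe sets, with no filter, the medians were 0.04, 0.04, −0.20, −0.17 and −0.16 (−0.40 without Animal #251). Over all 18625 tested probe sets the medians lay between −0.0044 and 0.0064, and 48.2% to 51.0% of them were below vehicle. The 5 comparisons use the same 4 vehicle arrays, so they are not independent of each other. In tissue RNA, fewer of the cells that make a transcript, astrocytes or others, and less of it per cell cannot be told apart.

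**Figure D1:**
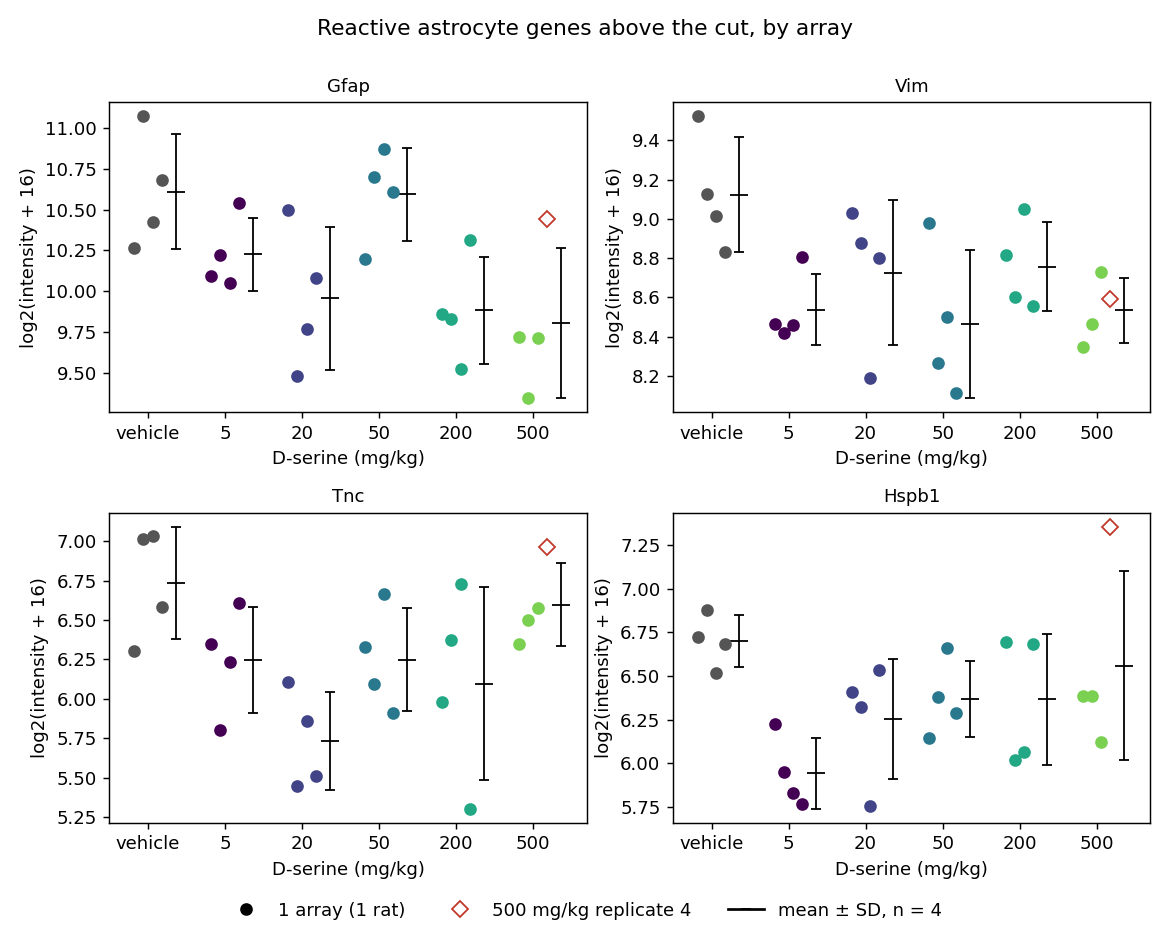
Level of each tested reactive astrocyte gene on every array, as log2(intensity + 16), by D-serine dose in mg/kg, with vehicle at the low end. Points are arrays (1 rat each), the open diamond is the array of Animal #251, and bars are mean ± SD of 4 arrays. Every Hspb1 and Vim point at 5 mg/kg and every Tnc point at 20 mg/kg lies below every vehicle point of that gene.

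With 24 arrays, 2 differences from vehicle were called at a Benjamini-Hochberg adjusted p under 0.05 in limma. At 5 mg/kg 1 of 4 members was called (Hspb1, lower), where 5.52% of all tested probe sets were called in either direction. At 20 mg/kg 1 of 4 was called (Tnc, lower), where 8.48% of all were. The higher doses (50, 200 and 500 mg/kg) called 0 of 4, where 0.864%, 0% and 0.00537% of all were. At an unadjusted p under 0.05 in limma the 50 mg/kg group had 1 member (Vim), the 200 mg/kg group 2 (Gfap and Tnc) and the 500 mg/kg group 2 (Gfap and Vim). A test of all 5 differences together (limma's F test) called none of the 4, where 5.93% of all were called, and the smallest adjusted p was that of Gfap (0.0594).

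Without Animal #251, on 23 arrays, 2 of 4 members were called at 5 mg/kg (Hspb1 and Vim, lower) against 8.98% of all tested probe sets, and 2 of 4 at 20 mg/kg (Tnc and Gfap, lower) against 12.7%. None was at the higher doses of 50, 200 and 500 mg/kg, against 2.46%, 0% and 0.00537% of all. There, 1, 2 and 3 members had an unadjusted p under 0.05 in limma. The F test then called Gfap (adjusted p 0.00857 in limma), where 7.52% of all were called. Each of these shares of members rests on 4 probe sets.

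Gfap, the filament that defines the astrocyte, was read by probe set 1368353_at (mean 10.18 over 24 arrays). Its levels were 9.72, 9.34, 9.71 and 10.44 at 500 mg/kg, the last being Animal #251, against 10.27, 11.07, 10.42 and 10.68 in vehicle. Apart from that array, which stood above the lowest vehicle array, all 500 mg/kg arrays were lower than all vehicle arrays. At 200 mg/kg Gfap read 9.86, 9.83, 9.52 and 10.31, and there too a single array reached the vehicle range.

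The Gfap difference from vehicle was −0.81 ± 0.23 (SE, n = 4 each; adjusted p 0.532 in limma) at 500 mg/kg. Without Animal #251 it was −1.02 ± 0.22, a 2.03-fold higher level in vehicle, with a 95% interval from −1.47 to −0.57. Its unadjusted p of 0.000102 did not pass over all probe sets (adjusted p 0.316), where 1 of 18625 was called in that comparison. At 200 mg/kg it was −0.73 ± 0.23 (adjusted p 0.776 in limma).

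In the lower dose groups Gfap read 10.09, 10.22, 10.05 and 10.54 (5 mg/kg), then 10.50, 9.48, 9.77 and 10.08 (20 mg/kg), then 10.20, 10.70, 10.87 and 10.61 (50 mg/kg). The 20 mg/kg arrays spread over a full log2 unit, and the 50 mg/kg arrays overlapped with vehicle. At 20 mg/kg the difference was −0.66 ± 0.23 with an adjusted p of 0.0835 on 24 arrays and 0.0329 without Animal #251 (limma). On those 23 arrays the call was lost without vehicle replicate 2 (−0.50, adjusted p 0.123), vehicle replicate 4 (0.0727), 20 mg/kg replicate 2 (−0.50, adjusted p 0.135) or 20 mg/kg replicate 3 (0.0993), and on 24 arrays it was gained without 20 mg/kg replicate 1 (−0.84, adjusted p 0.0348). At 50 mg/kg the 95% interval ran from −0.49 to 0.46. In order of mean level the groups stood at 9.80 (500 mg/kg, or 9.59 without Animal #251), 9.88 (200), 9.96 (20), 10.23 (5), 10.59 (50) and 10.61 (vehicle), which does not follow dose. The step from 5 to 50 mg/kg was larger than either SD (0.22 and 0.29), and the step from 20 to 5 mg/kg larger than the SD of 5 mg/kg but not that of 20 mg/kg (0.44). With all 24 arrays the other neighbours differed by less than their SDs. Without Animal #251 the step from 500 to 200 mg/kg was larger than the SD of 500 mg/kg (0.21) but not that of 200 mg/kg (0.33). No neighbours were tested.

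The Gfap F test was called on all 23 fits that left out a further array beside Animal #251. On 24 arrays its adjusted p of 0.0594 passed the threshold without 20 mg/kg replicate 1 (0.0321), 50 mg/kg replicate 1 (0.0388), 200 mg/kg replicate 4 (0.0381) or Animal #251. Oligodendrocyte markers summed to 28243 and 26560 intensity units on vehicle replicates 2 and 4, which had the highest Gfap of that group, against 17431 and 18323 on the other vehicle arrays. Vehicle replicate 2 was also the vehicle array high in choroid plexus markers. The part of either in the Gfap levels was not tested beyond leaving those arrays out.

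Vimentin is a filament of reactive astrocytes and also of endothelium, meninges and ependyma. Its levels (1367574_at) were 8.46, 8.42, 8.46 and 8.80 at 5 mg/kg, against 9.52, 9.12, 9.01 and 8.83 in vehicle. The highest dosed array lay just under the lowest vehicle array. The difference was −0.59 ± 0.19, with a 95% interval of −0.97 to −0.20 and an adjusted p of 0.0682 on 24 arrays and 0.0483 without Animal #251 (limma).

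That call was close to the threshold. On 23 arrays it stayed in 7 of the 23 fits that left out 1 more array. It was lost without vehicle replicates 1 (−0.45, adjusted p 0.17), 2 or 3, 5 mg/kg replicates 1 to 3, 20 mg/kg replicates 2 or 4, 50 mg/kg replicates 2 or 3, 200 mg/kg replicates 1, 2 or 4, or 500 mg/kg replicates 1 to 3. On 24 arrays it was gained without 20 mg/kg replicate 3 (0.0441) or 50 mg/kg replicate 1 (0.0404).

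At 500 mg/kg Vim read 8.35, 8.46, 8.73 and 8.59, all below vehicle and with Animal #251 inside the range of its group. The difference was −0.59 ± 0.19 (adjusted p 0.642 in limma), and −0.61 without that array. At 50 mg/kg the levels were 8.98, 8.27, 8.50 and 8.11, and the difference of −0.66 ± 0.19 had an adjusted p of 0.0912 in limma. Replicate 1 was the highest of that group, and without it the difference was −0.83 and was called (adjusted p 0.0195). At 20 mg/kg (9.03, 8.88, 8.19 and 8.80) and at 200 mg/kg (8.82, 8.60, 9.05 and 8.56) the arrays overlapped with vehicle, with 95% intervals of −0.78 to −0.01 and −0.75 to 0.02.

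Vim lay beside the meningeal fibroblast markers (collagens, Dcn, Lum, Ogn and others, 9 of 10 on the array). Their summed intensity was highest on vehicle replicate 1 (1343) and on 20 mg/kg replicate 1 (1325), the arrays with the highest Vim of their groups. At 5 and 500 mg/kg too the array with the highest Vim had the highest sum (1057 and 872). At 50 mg/kg it went the other way, since replicate 1 had the highest Vim of that group and the lowest sum (603). So it did at 200 mg/kg, where replicate 4 had the highest sum (901) and the lowest Vim (8.56). By group the sum ranged from 622 to 1057 (5 mg/kg), 613 to 1325 (20 mg/kg), 603 to 708 (50 mg/kg), 643 to 901 (200 mg/kg) and 556 to 872 (500 mg/kg), against 593 to 1343 in vehicle. Of 8 such markers tested, 6 were below vehicle at 5, 5 at 20 and 8 at 50, 200 and 500 mg/kg, with medians from −0.43 (50 mg/kg) to −0.07 (20 mg/kg) and none called, 0 to 3 having an unadjusted p under 0.05 in limma. Endothelial markers (10 tested) had medians from −0.24 to −0.13 with none called, 0 to 3 having an unadjusted p under 0.05. The part of meninges and vessels in the Vim levels was not tested.

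**Figure D2:**
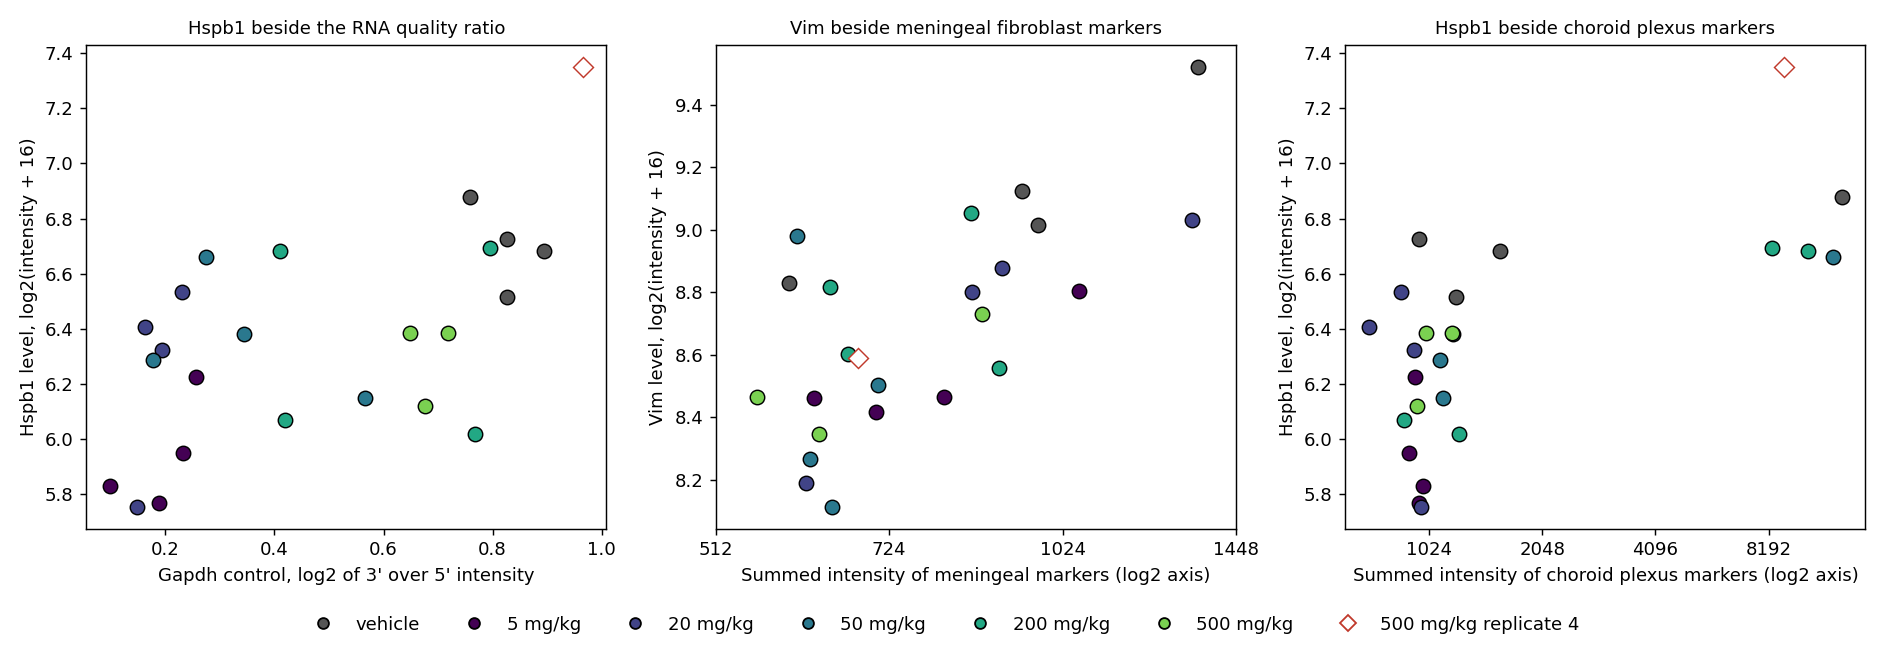
Levels on all 24 arrays beside 3 measures of the sample. The left panel sets Hspb1, as log2(intensity + 16), against the log2 ratio of 3′ to 5′ Gapdh intensity, where the 5 and 20 mg/kg arrays lie between 0.10 and 0.26. The middle panel sets Vim against the summed intensity of meningeal fibroblast markers, and the right panel sets Hspb1 against that of choroid plexus markers, both on log2 axes. The 5 arrays at 8345 or more on the right have the highest Hspb1 of their dose groups.

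Tenascin C is a matrix glycoprotein of development that astrocytes make again around lesions. Its levels (1373401_at) were 6.11, 5.45, 5.86 and 5.51 at 20 mg/kg, against 6.30, 7.01, 7.03 and 6.58 in vehicle. All the 20 mg/kg arrays were lower than all the vehicle arrays. Tnc fell by 1.002 ± 0.25 on the log2 scale (SE, n = 4 each), vehicle being 2.003-fold higher (95% interval −1.53 to −0.48; adjusted p 0.0154 in limma with 24 arrays and 0.00892 without Animal #251).

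The call held in 21 of 24 fits that left out 1 array. It was lost without vehicle replicate 2 (−0.91, adjusted p 0.0516), vehicle replicate 3 (−0.90, adjusted p 0.0503) or 20 mg/kg replicate 2 (−0.91, adjusted p 0.059), and it held in all 23 fits that started from 23 arrays. The level was near the cut, since 7 of the 24 arrays were under 5.98.

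Tnc at 500 mg/kg was 6.35, 6.50, 6.58 and 6.96, inside the vehicle range. Its difference from vehicle was −0.14 ± 0.25, with a 95% interval from −0.66 to 0.39. Against 20 mg/kg it was higher by 0.87 ± 0.25 (adjusted p 0.0408 in limma), where 7.19% of all tested probe sets were called, and this was the single call of a member between dose groups on 24 arrays. Without Animal #251 the difference was 0.74 and was not called (adjusted p 0.132), where 3.54% of all were, and it was also lost without 20 mg/kg replicates 2 (0.77, adjusted p 0.125), 3 or 4, or 500 mg/kg replicates 2 or 3.

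In the other groups Tnc read 6.35, 5.80, 6.23 and 6.61 (5 mg/kg), then 6.33, 6.09, 6.67 and 5.91 (50 mg/kg), then 5.98, 6.38, 6.73 and 5.30 (200 mg/kg). These groups reached into the vehicle range. The differences of −0.49, −0.48 and −0.64 did not pass (95% intervals −1.01 to 0.04, −1.01 to 0.04 and −1.16 to −0.11), and 200 mg/kg replicate 4 was the lowest Tnc array of the study. Of the other comparisons between doses, 200 against 5 mg/kg, 200 against 20 mg/kg and 500 against 5 mg/kg called 0 of 4 members, where 0.639%, 1.46% and 3.97% of all tested probe sets were called (1.57%, 3.1% and 1.92% without Animal #251). At an unadjusted p under 0.05 in limma on 24 arrays the members numbered 0, 0 and 1, the last being Hspb1 (higher at 500 than at 5 mg/kg by 0.62), and on 23 arrays 1 (Hspb1, 200 against 5 mg/kg, 0.42), 0 and 1 (Gfap, 500 against 5 mg/kg, −0.64).

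Hspb1, the small heat shock protein that reactive astrocytes share with stressed endothelium and neurons, read 6.22, 5.95, 5.83 and 5.77 (1367577_at) at 5 mg/kg, against 6.72, 6.88, 6.52 and 6.68 in vehicle. The groups did not overlap. Hspb1 fell by 0.76 ± 0.22 on the log2 scale (SE, n = 4 each), and vehicle was 1.69-fold higher (95% interval −1.22 to −0.30; adjusted p 0.0473 in limma with 24 arrays and 0.00853 without Animal #251).

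With 24 arrays the Hspb1 call held in 9 of 24 fits that left out 1 array. It was lost (adjusted p 0.0503 to 0.12) without any of the 4 vehicle arrays, 5 mg/kg replicates 2 to 4, 20 mg/kg replicates 1, 2 or 4, 50 mg/kg replicates 2 to 4, or 500 mg/kg replicates 1 or 2. Without Animal #251 it held in all 23. That array had the highest Hspb1 of the study, 7.35, beside 6.38, 6.38 and 6.12 on the other 500 mg/kg arrays. The 500 mg/kg difference was −0.14 ± 0.22 with it and −0.40 ± 0.19 without it (adjusted p 0.904 and 0.817 in limma).

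The 20 mg/kg arrays read 6.41, 6.32, 5.75 and 6.53, the 50 mg/kg arrays 6.15, 6.38, 6.66 and 6.29, and the 200 mg/kg arrays 6.69, 6.02, 6.07 and 6.68. Most were below the vehicle range and some were inside it. Their differences were −0.45, −0.33 and −0.33, with 95% intervals reaching above 0 on 24 arrays. In each group that had an array high in choroid plexus markers, those arrays had the highest Hspb1 of the group, which were vehicle replicate 2, 50 mg/kg replicate 3, 200 mg/kg replicates 1 and 4 and 500 mg/kg replicate 4. No 5 or 20 mg/kg array was high in these markers (sums of 907 to 988 and of 709 to 976).

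Without the 5 arrays high in choroid plexus markers, a setting chosen after seeing the data, Hspb1 stayed called at 5 mg/kg (−0.70, adjusted p 0.0148 in limma) and Tnc at 20 mg/kg (−0.91, adjusted p 0.00832), and Vim at 5 mg/kg (−0.58, adjusted p 0.115) and Gfap at 20 mg/kg (−0.50, adjusted p 0.106) were not. The 5 and 20 mg/kg groups, which carry all the calls of members against vehicle, had the lowest mean Gapdh ratios. With the Gapdh or the beta-actin ratio as a covariate no member was called in any comparison with vehicle, and neither was any of the 18625 probe sets at 5 or 20 mg/kg. With the Gapdh ratio, Hspb1 at 5 mg/kg was −0.32 on 24 arrays and −0.79 on 23 (adjusted p 0.88 and 0.958 in limma), and Tnc at 20 mg/kg was −0.72 on 24 arrays and −0.92 on 23 (adjusted p 0.79 and 0.984). Animal #251, which had the highest Gapdh ratio (0.97) and the highest Hspb1, thus moved the first of these values by more than its size on 24 arrays. Oligodendrocyte markers also lay lower at those doses, with 10 of 10 below vehicle at both and medians of −0.50 (5 mg/kg) and −0.61 (20 mg/kg), none called and 2 and 4 having an unadjusted p under 0.05 in limma. Their part in the members' levels was not tested. No array at 5 or 20 mg/kg reached the ratio of a vehicle array, so dose and RNA quality cannot be told apart there. The mean Gapdh ratio also fell along the order of animal numbers, from 0.83 in vehicle to 0.18 at 20 mg/kg. At 5 mg/kg, the last block, it was 0.19. At 500 mg/kg no array lay inside the vehicle range of the Gapdh ratio (0.76 to 0.89). Animal #251 was above it and the other arrays below it (0.65 to 0.72). The beta-actin ratio of those other arrays overlapped with vehicle (2.27 to 2.69 against 2.33 to 2.76). With the Gapdh ratio as covariate the Gfap difference was −0.80 on 24 arrays and −1.11 on 23 (adjusted p 0.415 and 0.483 in limma).

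**Figure D3:**
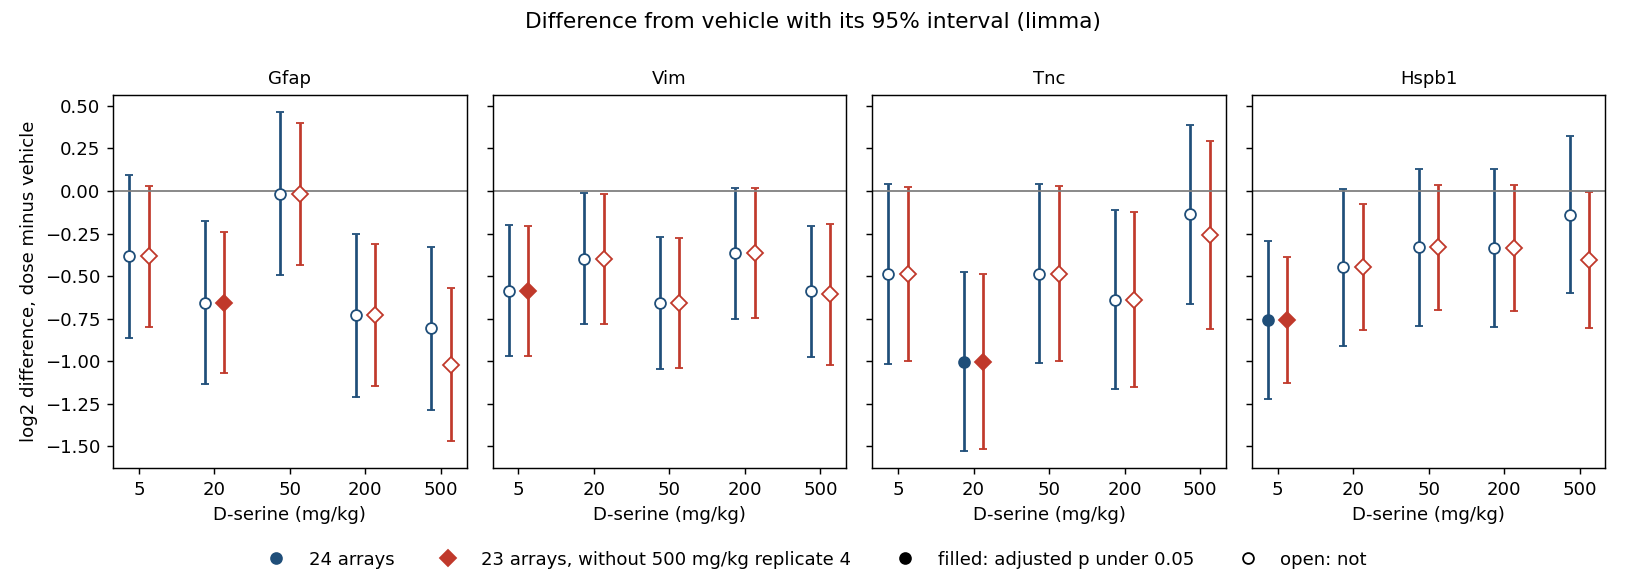
Log2 difference of each dose group minus vehicle with its 95% interval from limma, by D-serine dose in mg/kg, for the 4 tested genes. Circles use 24 arrays and diamonds 23, without Animal #251, and filled symbols passed an adjusted p of 0.05. The filled symbols are Hspb1 at 5 and Tnc at 20 mg/kg with both sets of arrays, and Vim at 5 and Gfap at 20 mg/kg with 23 arrays.

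Counted by separation, members with every dosed array below every vehicle array numbered 2 of 4 for 5 mg/kg (Vim and Hspb1), 1 for 20 mg/kg (Tnc), 0 for 50 mg/kg, 0 for 200 mg/kg and 1 for 500 mg/kg (Vim). Among all tested probe sets the shares were 6.08%, 7.18%, 3.48%, 1.78% and 1.33%. At 500 mg/kg without Animal #251 there were 3 (Gfap, Vim and Hspb1), against 3.25% of all.

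Cd44, Timp1, Serpina3n and Lcn2 lay below the cut and were not tested in the main comparison. Their levels are near the array's low end, where differences are small against noise, and a probe set this dim gives no firm level. Cd44, the hyaluronan receptor, had means of 5.97 (1368921_a_at) and 5.88 (1387952_a_at) over 24 arrays, just under the cut of 5.98, as Tnc at 6.28 was just above it. The mean levels of the Cd44 probe sets lay on the same side of vehicle at every dose except 50 mg/kg. There 1368921_a_at was below vehicle (5.69 against 5.89) and 1387952_a_at above it (5.98 against 5.79). Whether the probe sets moved together from array to array was not tested. At 20 mg/kg the first read 6.27, 6.44, 6.45 and 6.48, against 6.47, 6.46, 4.81 and 5.82 in vehicle, and the second 6.28, 6.24, 5.79 and 5.65, against 5.75, 5.76, 5.63 and 6.03 in vehicle. The second had its lowest array at 5 mg/kg (5.02), and the first at 500 mg/kg (4.78).

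Timp1 (1367712_at), the inhibitor of matrix metalloproteinases, averaged 5.94. It read 4.69, 5.68, 5.96 and 6.37 at 500 mg/kg, the last being Animal #251, against 6.50, 5.50, 6.10 and 6.19 in vehicle. The groups overlapped, and the arrays at 5 and 20 mg/kg all lay between 6.03 and 6.24. In a fit of all 31042 probe sets the 500 mg/kg difference was −0.39 (95% interval −0.91 to 0.13), and −0.62 without Animal #251 (adjusted p 0.753 in limma).

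Serpina3n (1368224_at) and Lcn2 (1387011_at), secreted proteins used as markers of astrocyte reactivity in mice, were under the cut on all 24 arrays. Serpina3n ranged from 4.74 to 5.84 and Lcn2 from 4.32 to 5.59. Neither had a dose group that stood above vehicle on every array. The largest mean differences were those at 200 mg/kg, 0.25 for Serpina3n (95% interval −0.23 to 0.72) and 0.55 for Lcn2 (−0.07 to 1.18), from the fit of all probe sets (adjusted p 1 and 0.988 in limma). In that fit, means below vehicle were found for 4, 4, 6, 5 and 8 of the 9 probe sets at 5, 20, 50, 200 and 500 mg/kg. At 5 and 20 mg/kg every probe set under the cut had a mean above vehicle.

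**Figure D4:**
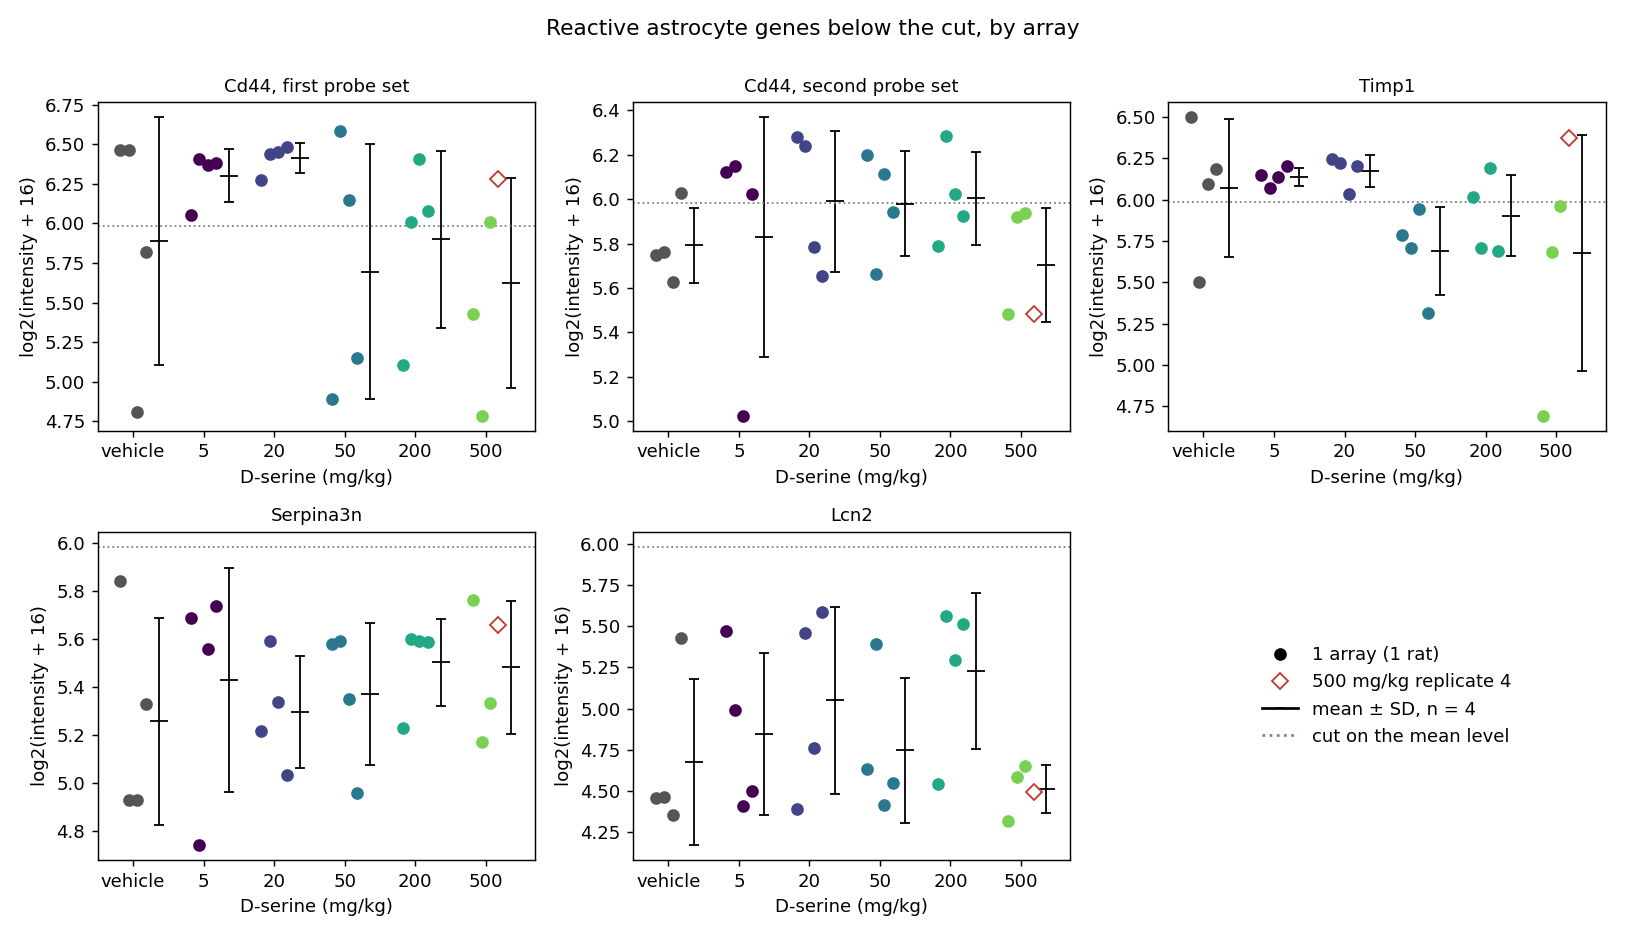
Level of the 5 probe sets below the cut on every array, as log2(intensity + 16), by D-serine dose in mg/kg, with vehicle at the low end. Points are arrays, the open diamond is Animal #251, bars are mean ± SD of 4 arrays, and the dotted line is the cut of 5.98 on the mean level. All Serpina3n and Lcn2 points lie under the line, and the Cd44 and Timp1 points straddle it.

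The levels of the members did not run in parallel over the 23 arrays without Animal #251. Pearson's r between members ranged from 0.07 (Tnc with Hspb1) to 0.40 (Gfap with Hspb1), with 0.09 for the filament pair Gfap and Vim. For deviations from the group means the same pairs had −0.36, 0.43 and −0.13. These are descriptions, since the arrays share dose groups and RNA quality. The named genes most like Gfap were Map4, a microtubule-associated protein (r = 0.84), Aqp4, the water channel of astrocyte endfeet (0.76), and Pkp4 (0.73). The genes most like Vim were Crabp2 (0.81) and Ogn (0.79), both on the list of meningeal fibroblast markers, and Ppil4 (0.79). The genes most like Tnc were Fasn, the fatty acid synthase (0.85), Slc7a1 (0.82) and Ssrp1 (0.81), and those most like Hspb1 were the tight junction protein Tjp1 (0.81), Fryl (0.81) and Lgals8 (0.79).

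Other genes of the reactive programme gave no call against vehicle. Of 32 companions (the list runs from Steap4, S1pr3 and Osmr to C3 and Nes), 16 were tested and none was called at any dose, with 0, 0, 2, 1 and 3 at an unadjusted p under 0.05 in limma from 5 to 500 mg/kg. Their medians lay between −0.20 (500 mg/kg) and −0.04 (5 mg/kg), and at 500 mg/kg 15 of 16 were below vehicle with 24 arrays and 11 of 16 without Animal #251 (49.3% and 47.4% of all tested probe sets). Without that array none was called either, with 0, 0, 2, 2 and 2 at an unadjusted p under 0.05. Of 15 genes of STAT3 signalling, which drives Gfap in reactive astrocytes, 11 were tested and none was called with 24 or 23 arrays. At an unadjusted p under 0.05 in limma there were 2, 1, 0, 0 and 0 on 24 arrays. On 23 there were 2, 3, 0, 1 and 2, with Stat3 among those at 500 mg/kg (−0.31, unadjusted p 0.00967, adjusted p 0.71). Medians on 24 arrays lay between −0.05 and 0.04. Of 17 resting astrocyte markers such as Slc1a2, Aldh1l1 and Gja1, 15 were tested and none was called at any dose with 24 or 23 arrays. At an unadjusted p under 0.05 in limma there were 1, 1, 0, 0 and 0 on 24 arrays and 3, 1, 0, 1 and 1 on 23. The marker medians on 24 arrays lay between −0.05 and 0.04. The summed level of these markers ranged from 22705 to 28018 units over all arrays but Animal #251, which had 29961.

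Of 31 matrix and receptor partners of the members, 24 were tested with 24 arrays and 23 without Animal #251. On 24 arrays the counts called were 1 higher and 1 lower (5 mg/kg), 2 higher and 1 lower (20 mg/kg) and 1 higher (50 mg/kg), where 5.52%, 8.48% and 0.864% of all tested probe sets were called, and none was called at the doses of 200 and 500 mg/kg (1 and 0 at an unadjusted p under 0.05 in limma). Of the 24, 19, 17, 12, 16 and 18 were below vehicle at 5, 20, 50, 200 and 500 mg/kg. Their medians at these doses were −0.12, −0.16, −0.01, −0.09 and −0.10. Adam10, the sheddase that cleaves Cd44, rose by 0.52, 0.63 and 0.55 at 5, 20 and 50 mg/kg (adjusted p 0.0144, 0.00229 and 0.0337 in limma). Tnr, the tenascin of perineuronal nets, fell by 0.43 at 5 mg/kg (0.022), and without Animal #251 also by 0.33 at 20 mg/kg (0.0427), the 1 count that differed there. Hapln1, the link protein of hyaluronan, rose by 0.55 at 20 mg/kg (0.0467), and Msn, a linker of Cd44 to actin, fell by 0.34 (0.0256). At those doses the Gapdh ratio was also low, and the calls were not made with it as a covariate.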

How the data were processed

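Total RNA from rat forebrain was hybridised to 24 Affymetrix arrays, 1 per rat, in 6 dose groups of 4 taken from the labels. The deposited values are intensities, 1 per probe set and array, on a linear scale, computed by the authors with GCOS (version not given) per the submitters' processing notes; no log2 scale or further scaling is stated per the labels. Array medians as deposited ran from 56 to 103.8. The number of arrays limits the precision.

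Intensities were quantile normalized and taken as log2(intensity + 16). The 57 control probe sets and the 40% with the lowest mean were left out, which kept 18625. Symbols came from the platform annotation (20826 probe sets with 1 symbol, 436 with several, 9780 with none). limma 3.58.1 in R 4.3.3 fitted 6 group means with an intensity trend, and p-values were Benjamini-Hochberg adjusted over all 18625. The fit was tested on simulated data. Promoters came from RefSeq tables, and figures were drawn in matplotlib 3.10.9.

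Members, companion genes and markers were chosen with earlier results of these data known. Every probe set of a member is named, at most 6 companions a list that were called against vehicle, and for each tested member the 3 genes with the highest correlation over 23 arrays. Alternatives were other normalizations, filters, pseudocounts and variance settings, array weights, RNA quality covariates and leaving out arrays; leaving out arrays high in choroid plexus markers, and normalizing the control probe sets, were added after seeing the data.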

Additional observations from a re-analysis of the deposited data

Results flagged for a closer look

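5 arrays stood apart from the other 3 of their group in a member's level, by Dixon's test at the 95% level for groups of 4. In 54 groups examined, chance gives about 1 in 20. Vim at 5 mg/kg had its highest array at 8.80 (replicate 4), the others lying between 8.42 and 8.46. Cd44 at 5 mg/kg had its lowest array at 6.05 in 1368921_a_at (replicate 1, others 6.37 to 6.41) and at 5.02 in 1387952_a_at (replicate 3, others 6.02 to 6.15), so the 2 probe sets of the gene singled out different rats. Serpina3n at 200 mg/kg had its lowest array at 5.23 (replicate 1, others 5.59 to 5.60). Lcn2 in vehicle had its highest array at 5.43 (replicate 4, others 4.35 to 4.47).

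Tnc differed between dose groups, being higher by 0.87 (log2) at 500 mg/kg than at 20 mg/kg with 24 arrays (limma, adjusted p 0.0408) and by 0.74 without Animal #251 (adjusted p 0.132).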

How the results depend on the processing

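Across single member differences recomputed under all alternatives (2664), 2480 kept their direction and their side of the threshold, 82 lost the call, 21 gained one, 81 changed sign with neither value called, and 0 turned direction with a call on either side; the causes were not tested unless the alternative's construction shows them. In counts of members called on 24 arrays, the 5 mg/kg count of 1 became 0 with values as deposited, no filter, a filter of 60% (which removed Tnc and Hspb1), a pseudocount of 64, 1 probe set per gene, or either RNA quality covariate, and 2 with array weights or only the arrays compared. The 20 mg/kg count of 1 became 0 with the filter of 60% or either covariate, and 2 with array weights. The counts of 0 at 50 mg/kg and at 500 against 5 mg/kg became 1 with array weights. The count of 1 at 500 against 20 mg/kg became 0 with no filter, the filter of 60%, only the arrays compared, 1 probe set per gene, either covariate, or without the arrays high in choroid plexus markers. Tnc was called there in 6 of the 13 alternatives that tested it. In 1 alternative Vim was called instead, lower at 500 mg/kg (adjusted p 0.0095 in limma). The F test count of 0 became 2 with values as deposited or array weights, and 1 without the choroid plexus arrays. Without Animal #251, the 5 mg/kg count of 2 became 1 with median centring, no filter, the filter of 60%, a pseudocount of 1, no intensity trend, robust moderation, 1 probe set per gene or without the choroid plexus arrays, and 0 with values as deposited or either covariate. The 20 mg/kg count of 2 became 1 with median centring, values as deposited, no filter, the filter of 60%, only the arrays compared, 1 probe set per gene or without the choroid plexus arrays, and 0 with either covariate. The 50 mg/kg count of 0 became 1 with array weights, that at 500 against 5 mg/kg 1 with values as deposited, array weights or only the arrays compared, and that at 500 against 20 mg/kg 2 with values as deposited and 1 with array weights. The F test count of 1 became 2 with values as deposited and 0 with either covariate. Leaving out 1 array at a time gave counts of 0 to 2 at 5 and 20 mg/kg and in the F test, 0 to 1 at 50 mg/kg and at 500 against 20 mg/kg, and 0 throughout at 200 and 500 mg/kg and in the other dose comparisons; from 23 arrays it gave 1 to 2 at 5 and 20 mg/kg and in the F test, and 0 to 1 at 50 mg/kg. Without normalization the median difference of all tested probe sets on 24 arrays was 0.19 at 5 mg/kg and 0.37 at 20 mg/kg against vehicle, and −0.46 at 500 against 20 mg/kg; at 20 mg/kg 6910 of 18625 were then called, where quantile normalization called 1580. With the control probe sets quantile normalized, a setting chosen after seeing the data, the log2 Gapdh ratio at 5 mg/kg minus that in vehicle was −0.59, and −0.63 as deposited. No paired analysis was possible because the labels name separate animals and give the groups no shared replicate numbers. Signal is a limit: 5 of 9 probe sets lay below the cut, and Tnc and Hspb1 close above it.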

Other observations

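Microglia, the resident immune cells that respond beside reactive astrocytes, gave no call against vehicle with 24 arrays: of 12 markers such as Aif1, Cx3cr1 and Tyrobp 8 were tested, with medians from −0.14 (50 mg/kg) to 0.04 (20 mg/kg), and 1, 2, 0, 0 and 1 had an unadjusted p under 0.05 in limma from 5 to 500 mg/kg. Without Animal #251 C1qb, a complement subunit made by microglia, averaged 7.93 at 20 mg/kg, against 7.42 in vehicle, and rose by 0.52 (limma, adjusted p 0.0182, and 0.0611 with 24 arrays). Among the marker lists of other cells, 2 genes were called against vehicle with 24 arrays. These calls were at 5 and 20 mg/kg, where 5.52% and 8.48% of all tested probe sets were called. With either RNA quality covariate no probe set was called at those doses. Tbr1, a transcription factor of deep-layer cortical neurons, averaged 6.62 at 5 mg/kg and 6.68 at 20 mg/kg, against 5.52 in vehicle, and rose by 1.11 and 1.16 (limma, adjusted p 0.00931 and 0.00459). Tbr1 was the single call among the 10 forebrain neuron markers tested, most of which were lower after these doses. After 5 mg/kg, 6 of them were lower than in vehicle, and the list's median difference was −0.08. After 20 mg/kg, 7 were lower and the median was −0.17. Rgs5, a pericyte gene, averaged 7.67 at 20 mg/kg, against 7.10 in vehicle, and rose by 0.56 (limma, adjusted p 0.00849). Both stayed called without Animal #251, where 2 more genes were called at 5 mg/kg, both lower: the neuronal kinase Camk2a by a difference of −0.42 and the myosin kinase Mylk by one of −0.31 (limma, adjusted p 0.00884 and 0.0381). Tm4sf1 was the 1 reactive companion called between doses, with 24 arrays, and was lower at 500 mg/kg than at 5 mg/kg by a difference of −0.45 (limma, adjusted p 0.039) and than at 20 mg/kg by one of −0.40 (adjusted p 0.0475). In those comparisons 3.97% and 7.19% of all tested probe sets were called with 24 arrays. Without Animal #251 neither Tm4sf1 difference was called.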
